A study of Rattus norvegicus with 8 samples.

Results

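The 9 genes described here are known to act in, or answer to, signalling by cyclic AMP (cAMP), and their RNA was measured in the rat Achilles tendon. The signal itself was not measured. They are the transcription factor genes Creb1 and Crem, the coactivator genes Crtc1 and Crtc2, the kinase gene Sik1, the cAMP phosphodiesterase genes Pde4b and Pde4d, and the genes Rgs2 and Rgs16 for regulators of G protein signalling. They were chosen with earlier results of these data known and taken by gene symbol. Each of the 9 had 1 row among the 15590 genes measured. Immediately after a run of 1 h, Sik1 was 6.36-fold, Crem 5.90-fold, Rgs16 3.95-fold and Pde4b 2.53-fold higher than in rats that had not run, in each case with all 4 run libraries above all 4 control libraries. Pde4d, Crtc2, Rgs2, Creb1 and Crtc1 did not pass the same test.

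The study compared polyadenylated RNA from right-leg Achilles tendons of wild-type male Sprague Dawley rats, aged 8 to 10 weeks, in 2 groups of 4 libraries. Rats of the post-running group (0 h p.r.) ran uphill on a treadmill for 1 h, at 20 m/min and an incline of 10°, and were killed at once. By the study's methods, airflow urged the running rats on, and mild electric stimulation was given to those that left the belt. Training of 10 min at rising speed came before the run. Rats of the naïve control group (NC) kept their normal cage activity, and neither group carried a modified allele or received a drug. By the study's methods, the caged controls were killed together with rats collected 12 h after running, whereas the labels describe both groups as killed immediately. If the methods hold, the time of sampling and the run cannot be told apart in this comparison. The airflow, electric stimulation and training cannot be told apart from the run either. The labels number the libraries of a group as replicates and do not say from how many rats each came, and p-values measure the spread between these libraries.

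In cells, G protein-coupled receptors that act through Gs switch on adenylyl cyclases, and the cAMP that these make releases the catalytic subunits of protein kinase A. The kinase phosphorylates CREB, which binds cAMP response elements in promoters and, with the CRTC coactivators, switches on its target genes. Several of these targets then damp the signal. An internal promoter of Crem gives rise to the short repressor ICER, PDE4 enzymes break down cAMP, and salt-inducible kinases keep the CRTC proteins out of the nucleus. RGS proteins act on other G proteins than Gs, speeding up the shut-off of Gi and Gq, and are not counted here as a brake on cAMP. Such genes are known as early-response genes in many tissues.

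The libraries held 11353941 to 17903265 whole reads in the listed genes, recovered from the deposited values, and the 9 genes had 45 to 4101 reads per library, so counting error was small for all but the lowest of them. Levels are given as FPKM, fragments per kilobase of a gene after the authors' scaling of the libraries, which is a level per length. Comparisons between genes, and shares of a family, rest on the length assumed for each gene. Among the 9 it ran from 868 bases (Rgs2) to 4984 (Sik1), and was 4664 for Crem, whichever of its transcripts was made. NC replicate 2 had the fewest reads and the largest share of mitochondrial FPKM (31.1%, against 16.3% to 21.9% in the other 7 libraries), and 0 h p.r. replicate 4 lay nearest to NC on the first principal component (-3.05, against 24.4 to 42.8 in the other 3 run libraries). Where leaving out either library changed the call or the direction of 1 of the 9 genes, the value without it is given. The 6 tendon markers, Tnmd and Scx among them, were present in all libraries, with summed levels of 2656 to 5339 in NC and 2431 to 4905 in 0 h p.r. In bulk tissue, a change in the number of cells of a type and a change in RNA per cell cannot be told apart.

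A gene was called where its limma adjusted p was under 0.05 and its fold change at least 2. Of the 9 genes, 4 passed both thresholds, all higher in 0 h p.r., against a background of 2.70% of the 13863 genes tested that were called, 1.80% higher and 0.894% lower. The values of 5 genes lay apart between the groups with 0 h p.r. higher, the 4 called genes and Crtc2, where the background was 8.15%. The median log2 fold change of the 9 was 1.22, compared with -0.0014 over all genes tested. It was above 0 for all 9, against 49.9% of genes tested, although for Crtc1 it was near 0 with a lower mean FPKM after the run (5.25, against 5.41 in NC). At an unadjusted p under 0.05 there were 6 genes, the 4 called ones with Pde4d and Crtc2, where the background was 22.6%. As the 9 genes were chosen with earlier results of these data known, these counts are no independent evidence of a direction.

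**Figure D1:**
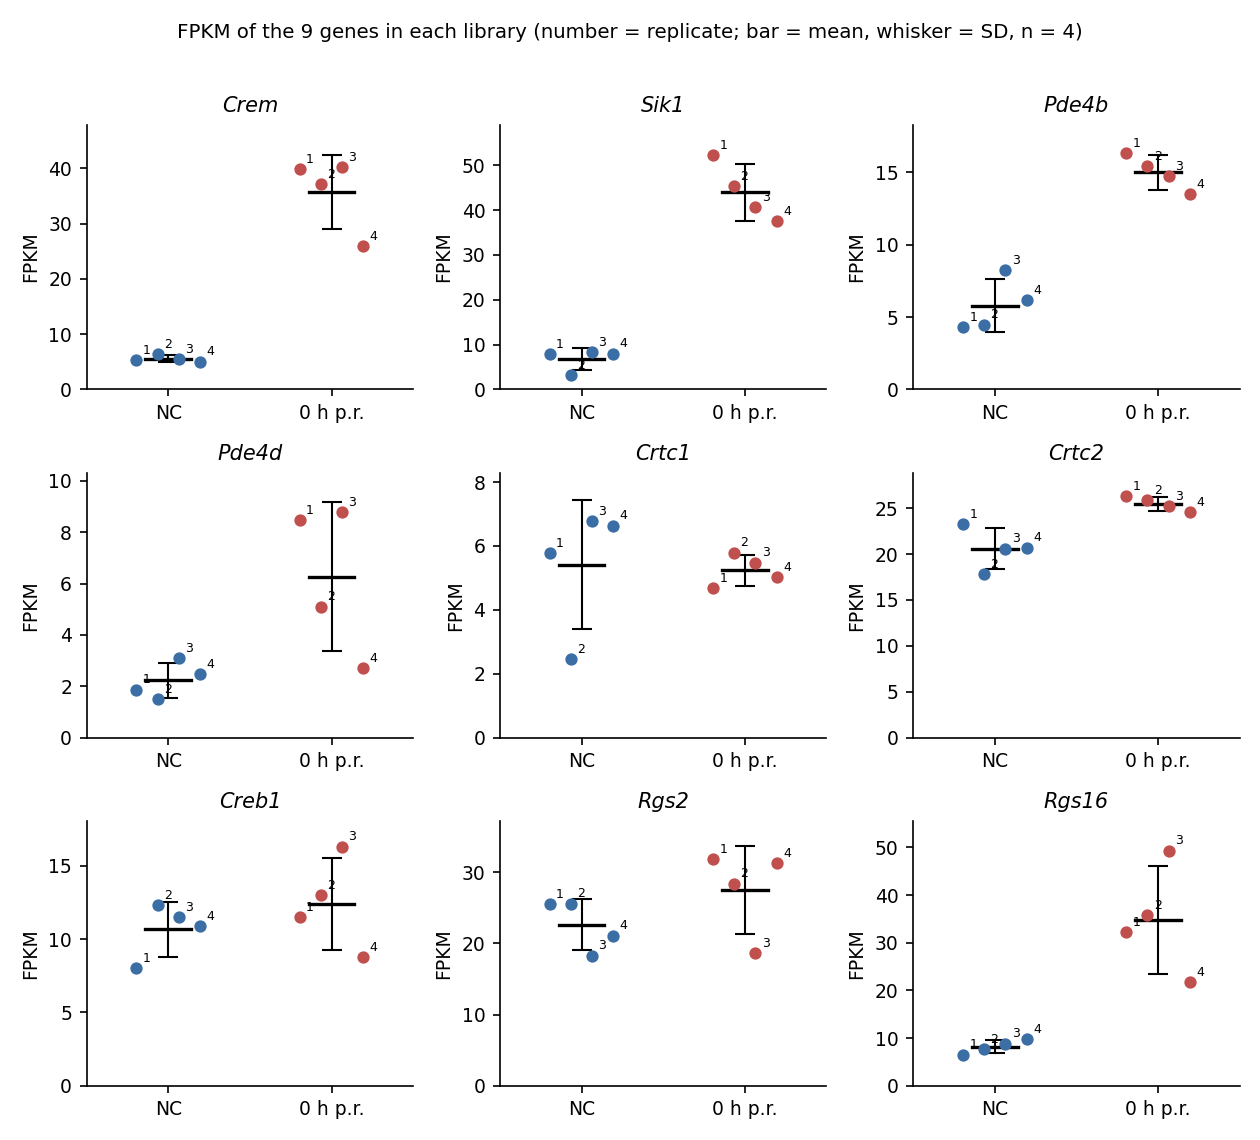
Each panel plots the FPKM of 1 gene (vertical axis, from 0) in the 4 NC libraries (blue) and the 4 libraries of 0 h p.r. (red), with the replicate number beside each point and the mean and SD in black. The groups lie apart for Crem, Sik1, Pde4b, Crtc2 and Rgs16, and for Pde4d the library 0 h p.r. replicate 4 (2.69) lies among the NC values.

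Crem (ENSRNOG00000014900), a member of the CREB family that encodes both activators and repressors, ranked 3 by p among all genes tested. Its FPKM was 5.33, 6.45, 5.52 and 5.03 in NC replicates 1 to 4 and 39.8, 37.1, 40.2 and 25.9 in 0 h p.r. replicates 1 to 4. The lowest run library was thus far above the highest control. The mean rose from 5.58 ± 0.613 to 35.8 ± 6.71 (SD, n = 4), a log2 fold change of 2.56 (SE 0.16, 95% interval 2.20 to 2.92, limma adjusted p = 0.000210). In rank of level, Crem moved from percentile 38.6 of the tested genes in NC to percentile 84.8 after the run. The call held in each of the 8 fits that left out 1 library, with a log2 fold change of 2.50 to 2.71.

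Creb1 (ENSRNOG00000013412) encodes CREB itself, which is regulated mostly by phosphorylation and not through its RNA. Its FPKM was 7.99, 12.3, 11.5 and 10.9 in NC and 11.5, 13.0, 16.3 and 8.75 in 0 h p.r. The groups overlapped, and the log2 fold change of 0.19 (SE 0.20, 95% interval -0.27 to 0.64, limma adjusted p = 0.644) was within the spread between libraries. The interval covers a fold of 0.832 to 1.56, and with 1 library left out the log2 fold change ran from 0.05 (without 0 h p.r. replicate 3) to 0.34 (without 0 h p.r. replicate 4).

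With Atf1, the remaining gene of the CREB family, the summed level of the family was 32.2 to 41.7 FPKM in NC and 55.7 to 82.9 after the run. Crem made up 13.9% to 16.6% of that sum in NC and 46.5% to 51.0% in 0 h p.r., a mean of 15.2% ± 1.14 against 48.3% ± 1.98 (SD, n = 4). The share of Creb1 was 24.9% to 30.8% in NC and 14.7% to 19.7% in 0 h p.r., although its own level did not pass the test. By FPKM, Crem thus went from the least abundant gene of the family to the most abundant in each of the 4 run libraries. The log2 ratio of Crem to Creb1 was -0.87 ± 0.23 in NC and 1.50 ± 0.19 after the run, a difference of 2.37. An exact two-sided permutation of the group labels, which has 70 assignments, gave p = 0.0286, the smallest it can give, and 0.0429 after adjustment over the 6 pairs of related genes compared in this way. The 6 pairs were chosen after the data were seen. Where 1 gene of a pair was called, a low p-value of the ratio is no evidence beyond that call.

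Because the deposited table holds a single value per gene, the Crem transcripts that start at different promoters, ICER included, could not be separated. The RefSeq tables place 3 transcription starts of Crem on chromosome 17 of the build GRCr8, the second 50731 and the last 51424 bases after the first. The letters of the cAMP response element were searched in the 300 bases around each start (250 before and 50 after). The full element TGACGTCA reads the same on both strands and holds the short element TGACG and its complement CGTCA. Shown are the 250 bases before the second and last starts of Crem, the start of Sik1 and the first start of Creb1. Capitals mark the element, full in Crem and short in Sik1 and Creb1. Some windows not shown also hold the short element, and its positions in them are given below.
Crem, second start, chr17:58984547-58984796, plus strand: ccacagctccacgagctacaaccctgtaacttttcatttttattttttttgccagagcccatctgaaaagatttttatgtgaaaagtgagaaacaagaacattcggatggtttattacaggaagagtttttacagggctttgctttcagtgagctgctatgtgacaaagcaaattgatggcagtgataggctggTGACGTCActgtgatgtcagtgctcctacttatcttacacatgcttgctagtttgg
Crem, last start, chr17:58985240-58985489, plus strand: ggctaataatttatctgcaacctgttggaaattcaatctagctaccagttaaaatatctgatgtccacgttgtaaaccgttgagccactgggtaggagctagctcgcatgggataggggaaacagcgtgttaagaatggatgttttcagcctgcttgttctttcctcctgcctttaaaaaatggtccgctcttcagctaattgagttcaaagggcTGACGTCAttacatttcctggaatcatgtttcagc
Sik1, chr20:9958647-9958896, minus strand: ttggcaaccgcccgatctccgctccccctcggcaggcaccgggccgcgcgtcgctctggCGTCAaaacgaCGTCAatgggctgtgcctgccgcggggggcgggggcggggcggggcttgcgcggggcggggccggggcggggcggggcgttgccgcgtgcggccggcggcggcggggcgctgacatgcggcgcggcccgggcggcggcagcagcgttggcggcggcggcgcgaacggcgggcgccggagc
Creb1, first start, chr9:73397259-73397508, plus strand: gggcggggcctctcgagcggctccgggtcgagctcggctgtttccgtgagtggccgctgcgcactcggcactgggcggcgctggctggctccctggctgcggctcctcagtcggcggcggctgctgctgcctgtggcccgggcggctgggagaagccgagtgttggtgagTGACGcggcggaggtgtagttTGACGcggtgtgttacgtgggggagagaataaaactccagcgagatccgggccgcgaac

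In Crem the full element began 56 bases before the second start, and 35 bases before and at base 40 after the last start. The first start of Crem had the short element alone, beginning 241 and 6 bases before it. In Sik1 the short element began 191 and 180 bases before the start, in the CGTCA orientation in both places. Creb1 held it 80 and 59 bases before its first start and at base 9 after it. Single short elements were in the windows of Crtc2 (95 bases before the start) and Rgs2 (216 before). Of the 5 starts of Pde4d, the third had short elements 231 and 194 bases before it and the fourth 1 at 19 bases before it. The windows of Pde4b, Rgs16 and Crtc1, the other 3 of Pde4d and the second of Creb1 held neither, which says only that these letters are not in these 300 bases.

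Counted over windows, the full element was in 2 of the 17 windows of the 9 genes (11.8%), both of Crem, and in 612 of all 33469 rat promoter windows (1.83%). It was in 2.79% of the 10775 windows of genes tested and in 16 of the 191 windows (8.38%) of genes called higher in 0 h p.r. The 16 include the 2 of Crem. By symbol, these windows covered 9702 of the 13863 genes tested and 176 of the 250 called higher. The short element, on either strand and counted also inside the full one, was in 9 of the 17 windows (52.9%), against 21.2% of all windows, 30.4% of those of tested genes and 38.7% of those of genes called higher. Windows of 1 gene are not independent of each other. These matches describe letters in the reference and are not measurements of binding, and of the 4 called genes Pde4b and Rgs16 had no match.

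**Figure D2:**
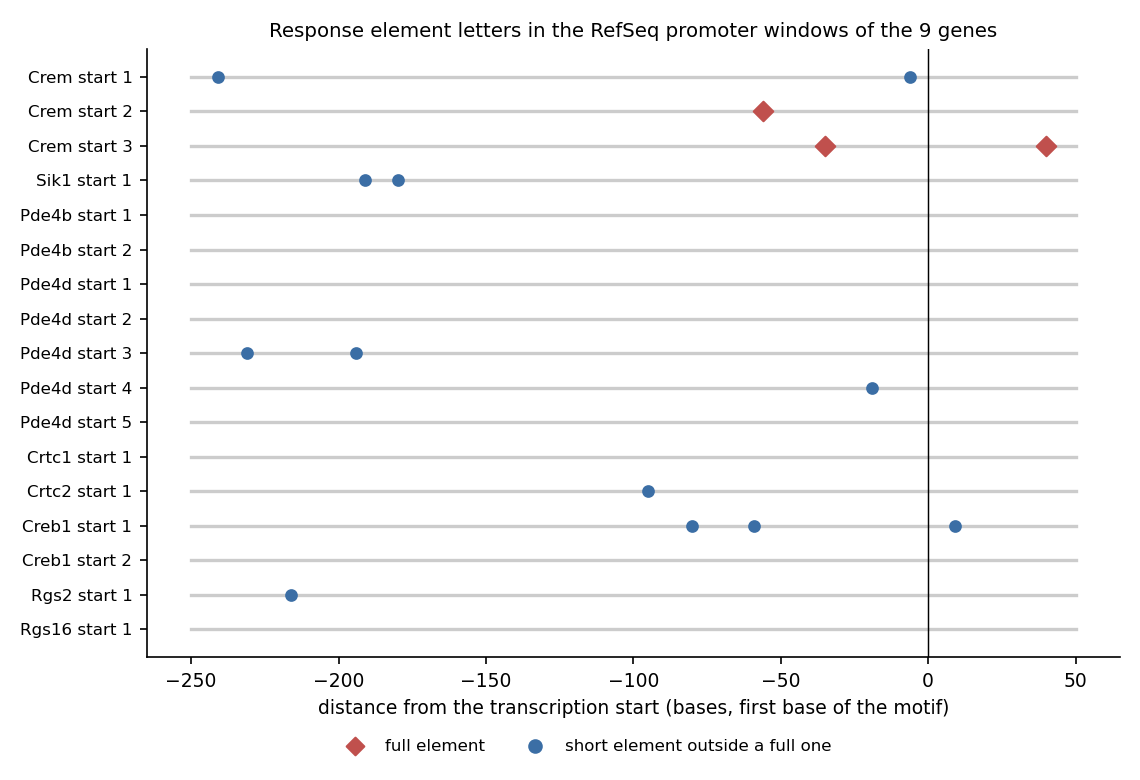
Each grey line is the promoter window of 1 RefSeq transcription start of the 9 genes, from 250 bases before to 50 bases after the start (horizontal axis), with red diamonds for full and blue points for short cAMP response elements. Full elements appear at the second and last starts of Crem alone, and the windows of Pde4b, Rgs16 and Crtc1 are empty.

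The CRTC coactivators bind CREB and carry the signal to the transcription machinery once they are dephosphorylated. Crtc2 (ENSRNOG00000056337) had an FPKM of 23.3, 17.8, 20.6 and 20.7 in NC and 26.3, 25.9, 25.2 and 24.6 in 0 h p.r. All 4 run libraries lay above all controls, but by little. The log2 fold change was 0.31 (SE 0.11, 95% interval 0.06 to 0.55), a fold of 1.24, and did not pass (limma adjusted p = 0.132, between 0.0712 and 0.679 over the 18 alternative analyses). Crtc1 (ENSRNOG00000022421) had 5.77, 2.45, 6.77 and 6.64 FPKM in NC and 4.69, 5.79, 5.48 and 5.03 in 0 h p.r., with groups that overlapped. Its log2 fold change of 0.04 (95% interval -0.58 to 0.66, limma adjusted p = 0.952) had no stable direction, since it was -0.26 without NC replicate 2, the control with the lowest value.

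Within the CRTC genes the shares overlapped between the groups. Crtc2 made up 64.0% to 75.9% of the summed FPKM of Crtc1, Crtc2 and Crtc3 in NC and 70.3% to 73.0% in 0 h p.r., and Crtc1 made up 10.5% to 21.5% and 12.9% to 15.7%. The log2 ratio of Crtc2 to Crtc1 was 1.92 ± 0.51 in NC and 2.18 ± 0.13 after the run (SD, n = 4), a difference that was within the spread (0.26, exact permutation p = 0.343, adjusted 0.411), and was 0.50 without NC replicate 2.

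Sik1 (ENSRNOG00000001189) encodes a salt-inducible kinase that phosphorylates the CRTC proteins. Its FPKM was 7.93, 3.14, 8.38 and 7.97 in NC and 52.2, 45.4, 40.7 and 37.5 in 0 h p.r. NC replicate 2 was the low value of the controls, and the lowest run library was still several times the highest control. The mean rose from 6.86 ± 2.49 to 43.9 ± 6.39 (SD, n = 4), a log2 fold change of 2.67 (SE 0.28, 95% interval 2.04 to 3.30, limma adjusted p = 0.00181), and it was 2.36 at the lowest when a library was left out. Crem and Sik1 were close in size, with a ratio of group means of 6.41 for each. The log2 fold change of Sik1 was above that of Crem over all libraries (2.67 against 2.56) and below it without NC replicate 2 (2.36 against 2.63). By mean FPKM, Sik1 was the most abundant of the 9 genes after the run, at percentile 87.6 of the tested genes, having been at percentile 44.7 in NC.

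The other SIK genes did not pass the test. Sik2 had a mean FPKM of 20.3 ± 5.41 in NC and of 14.6 ± 2.27 after the run (log2 fold change -0.44, limma adjusted p = 0.215), and Sik3 9.71 ± 2.58 and 11.8 ± 2.36 (0.30, limma adjusted p = 0.493). Sik1 accordingly made up 13.1% to 21.5% of the summed SIK FPKM in NC and 58.9% to 69.0% in 0 h p.r. The log2 ratio of Sik1 to Sik2 was -1.55 ± 0.45 in NC and 1.56 ± 0.40 after the run (difference 3.11), and that of Sik1 to Sik3 was -0.52 ± 0.20 and 1.86 ± 0.31 (difference 2.37). Each had an exact permutation p = 0.0286, adjusted 0.0429. Both pairs were chosen after the data were seen. With Sik1 far apart between the groups, these p-values are no evidence beyond its call.

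**Figure D3:**
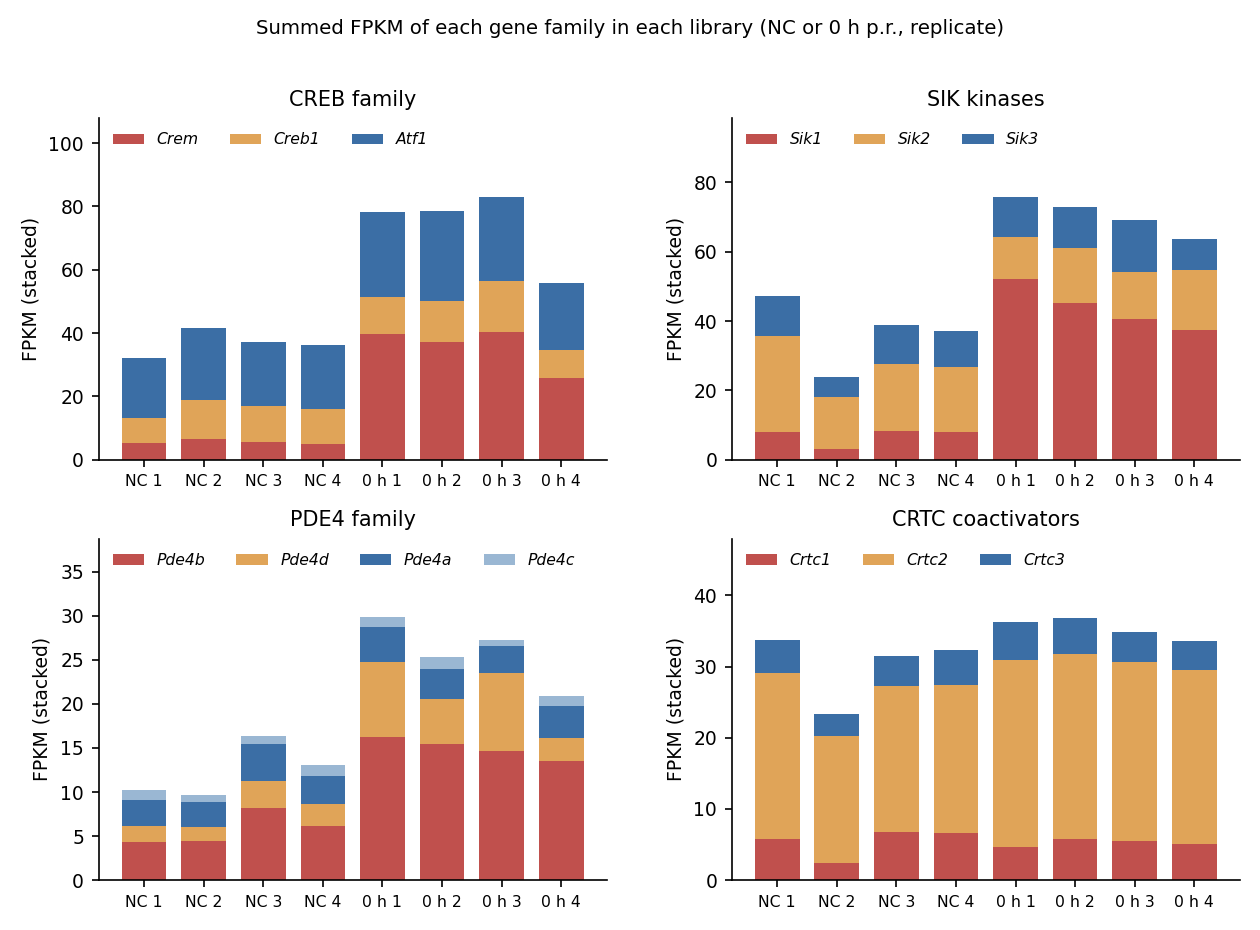
Stacked bars show the FPKM (vertical axis, from 0) of the genes of 4 families in each of the 8 libraries. The sections of Crem (13.9% to 16.6% in NC, 46.5% to 51.0% in 0 h p.r.) and Sik1 (13.1% to 21.5% and 58.9% to 69.0%) were wider in all run libraries, whereas the shares of Crtc2 overlapped (64.0% to 75.9% and 70.3% to 73.0%).

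The PDE4 enzymes hydrolyse cAMP and so end its signal. For Pde4b (ENSRNOG00000005905) the FPKM was 4.32, 4.47, 8.21 and 6.16 in NC and 16.3, 15.4, 14.7 and 13.5 in 0 h p.r. The run libraries were close to each other and all above the controls. The mean rose from 5.79 ± 1.81 to 15.0 ± 1.18 (SD, n = 4), with a log2 fold change of 1.34 (SE 0.19, 95% interval 0.90 to 1.77, limma adjusted p = 0.00698). The call held in all 8 fits that left out 1 library (adjusted p 0.00409 to 0.0296) and was narrowly lost with the FPKM of each library set to a fixed sum (limma adjusted p = 0.0507).

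For Pde4d (ENSRNOG00000042536) the FPKM was 1.87, 1.51, 3.08 and 2.46 in NC and 8.48, 5.10, 8.77 and 2.69 in 0 h p.r. Replicates 1 to 3 of the run group lay above all controls and replicate 4 lay below NC replicate 3. The log2 fold change of 1.22 (SE 0.35, 95% interval 0.44 to 2.00) was close to that of Pde4b but did not pass (limma adjusted p = 0.0742). Without 0 h p.r. replicate 4 it was 1.54 and passed (adjusted p 0.0119), and with any other library left out the adjusted p was as high as 0.181. The skeletal muscle markers differed widely between the same run libraries, with 9 of 12 measured and none at 0, and with summed FPKM of 37468, 6391, 16912 and 1108 in 0 h p.r. replicates 1 to 4 and 3786 to 7490 in NC. Their part in the spread of Pde4d was not tested. The run values of Pde4b spanned 13.5 to 16.3 over the same libraries.

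Pde4b made up 42.3% to 50.3% of the summed FPKM of the 4 PDE4 genes in NC and 53.8% to 64.5% in 0 h p.r., and the sum itself was 9.71 to 16.3 and 20.9 to 29.8. The log2 ratio of Pde4b to Pde4d was 1.20 ± 0.13 in NC and 1.31 ± 0.64 after the run, a difference of 0.12 that was within the spread (exact permutation p = 0.800) and was -0.16 without 0 h p.r. replicate 4.

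RGS proteins are GTPase activators for G protein alpha subunits. Rgs16 (ENSRNOG00000027024) had an FPKM of 6.51, 7.59, 8.83 and 9.74 in NC and 32.2, 35.8, 49.3 and 21.8 in 0 h p.r. The groups lay far apart, with 0 h p.r. replicate 4 the lowest of the run libraries. The mean rose from 8.17 ± 1.41 to 34.8 ± 11.3 (SD, n = 4), a log2 fold change of 1.98 (SE 0.23, 95% interval 1.45 to 2.51, limma adjusted p = 0.00309), which held in all 8 fits that left out a library. Rgs2 (ENSRNOG00000003687) had 25.5, 25.6, 18.3 and 21.1 FPKM in NC and 31.9, 28.4, 18.6 and 31.3 in 0 h p.r. Replicate 3 of the run group lay among the controls, and the log2 fold change of 0.26 (SE 0.19, 95% interval -0.17 to 0.70) did not pass (limma adjusted p = 0.474). With 1 library left out it ran from 0.17 (without NC replicate 3) to 0.44 (without 0 h p.r. replicate 3), and did not pass.

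Rgs16 thus passed the test and Rgs2 did not. Their pair was chosen after the data were seen, so the p-value of their ratio is no evidence beyond the call of Rgs16. The log2 ratio of Rgs16 to Rgs2 was -1.42 ± 0.44 in NC and 0.30 ± 0.80 after the run (difference 1.72, exact permutation p = 0.0286, adjusted 0.0429). Over the 17 RGS rows, whose sum was 591 to 622 FPKM in NC and 519 to 653 in 0 h p.r., Rgs16 went from 1.10% to 1.57% of the sum to 4.19% to 7.54%. The bulk of that sum was Rgs5, a gene of mural cells of vessels, with 432 ± 41.5 FPKM in NC and 381 ± 69.4 after the run (limma adjusted p = 0.572).

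**Figure D4:**
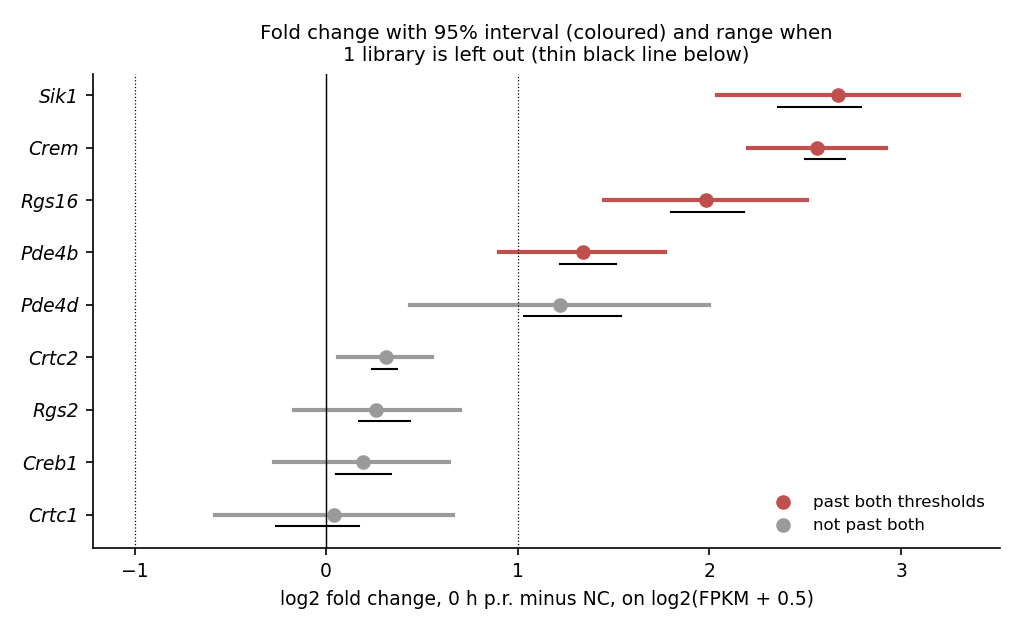
Points show the log2 fold change of each gene, 0 h p.r. minus NC, on log2(FPKM + 0.5) (horizontal axis), with the 95% interval as a coloured bar and the range over the 8 fits without 1 library as a thin black line. Sik1, Crem, Rgs16 and Pde4b (red) lie at 1.34 to 2.67, Pde4d (grey, 1.22) has a wide interval, and the intervals of Rgs2, Creb1 and Crtc1 cross 0.

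In NC the 9 genes ranked, from the highest mean, Rgs2 (22.6 FPKM), Crtc2 (20.6), Creb1 (10.7), Rgs16 (8.17), Sik1 (6.86), Pde4b (5.79), Crem (5.58), Crtc1 (5.41) and Pde4d (2.23). Of neighbours in that order, Crtc2 and Creb1 alone had values that did not overlap. In 0 h p.r. the order was Sik1 (43.9), Crem (35.8), Rgs16 (34.8), Rgs2 (27.6), Crtc2 (25.5), Pde4b (15.0), Creb1 (12.4), Pde4d (6.26) and Crtc1 (5.25), and among neighbours Crtc2 and Pde4b alone did not overlap. The called genes thus lay in the middle and lower ranks before the run, and Sik1, Crem and Rgs16 took the top ranks after it.

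For all 4 called genes the lowest run library was 0 h p.r. replicate 4. Over the 250 genes called higher, this library was the lowest for 132 (52.8%), replicate 1 for 53 (21.2%), replicate 3 for 43 (17.2%) and replicate 2 for 22 (8.80%), so the low place of replicate 4 was shared by many risen genes. The genes whose pattern over the 8 libraries was most like that of each called gene, by Pearson's r of log2(FPKM + 0.5), are given as a description, with no test, and a difference between the groups alone gives a high r. For Crem they were Ccl7 (r = 0.993), Chordc1 (0.993) and Il6 (0.991). For Sik1 they were Ints6 (0.995), Csnk1e (0.994) and Klf16 (0.994), for Pde4b Gcnt4 (0.991), Smad3 (0.988) and Zbtb2 (0.988), and for Rgs16 Hif1a (0.994), Adamts4 (0.994) and Rnd1 (0.990).

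The rest of the pathway was described by lists of its parts. By limma none was called among the 13 tested rows for G protein alpha subunits and adenylyl cyclases (12 genes, as Gnas has 2 rows, median log2 fold change 0.09), the 11 for protein kinase A and Epac (0.16), the 12 for other cAMP phosphodiesterases (0.06), the 9 for other CREB partners and SIK kinases (0.31) or the 13 for other RGS proteins (-0.24), nor by a limma-voom fit to the recovered reads. At an unadjusted p under 0.05 these lists held 3, 4, 6, 5 and 6 of their rows, where the background was 22.6% of genes tested. Gnai3 (0.67, limma adjusted p = 0.0226), Adcy2 (0.61, 0.0435) and Pde2a (-0.43, 0.0453) passed the adjusted p alone, under a fold of 2. The values of each lay apart between the groups. Over all genes tested, 793 passed the adjusted p alone. The largest changes of these lists were those of Gnai1 (-0.84, limma adjusted p = 0.0545), Prkar2b (-1.07, 0.0885), Pde3b (-0.94, 0.141), Ppp3ca, a catalytic subunit of calcineurin, which dephosphorylates CRTC proteins (0.63, 0.0530), and Rgs1 (1.31, 0.0803). Of these, Prkar2b was called with array weights (-1.21, limma adjusted p = 0.0349). Rgs1 was called with array weights (1.55, 0.0320) and with the replicate number as a block (1.31, 0.0358). Pde10a, Rgs7 and Rgs20 were each called in 1 of the 8 fits without 1 library (lowest limma adjusted p 0.0463, 0.0463 and 0.0371).

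Of 18 tested receptors that couple mainly to Gs (median -0.13), 1 was called higher and 2 lower (1.80% and 0.894% of all genes tested). The prostacyclin receptor gene Ptgir was at 4.69 to 7.04 FPKM in NC and rose to 10.2 to 17.4 (log2 fold change 1.09, adjusted p = 0.0135 by limma), which held in 5 of the 8 fits without 1 library. The corticotropin receptor gene Mc2r fell from 15.5 ± 6.89 to 2.82 ± 0.918 FPKM (-2.23, limma adjusted p = 0.00698) and the thyrotropin receptor gene Tshr from 8.62 ± 2.49 to 2.56 ± 1.91 (-1.71, limma adjusted p = 0.0328), the latter held in 2 of 8. Tshr was at -2.09 without 0 h p.r. replicate 4 (limma adjusted p = 0.00277) and missed the call with the replicate block (0.0937), and with a fixed sum of FPKM per library both Tshr and Ptgir missed it (0.107 each). Rodent adipocytes express Mc2r and Tshr, and the adipocyte markers, with 9 of 10 measured and none at 0, summed to 2490 to 4606 FPKM in NC and 842 to 1807 in 0 h p.r. NC replicate 1, with the highest adipocyte sum (4606), also had the highest FPKM of Prkar2b (64.8), Pde3b (23.5) and the CREB target gene Pck1 (282). The part of the adipocyte markers in the falls of Mc2r and Tshr, and in the lower run values of Prkar2b, Pde3b and Pck1, was not tested. The summed bone markers were 14.6 to 54.7 FPKM in NC and 53.3 to 185 in 0 h p.r. and the cartilage markers 4.99 to 84.5 and 82.6 to 348, while those of endothelium (236 to 296 and 231 to 328) and macrophages (88.7 to 129 and 78.6 to 172) overlapped widely, and the part of these tissues in the rises of the 9 genes was not tested.

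Of 28 known CREB target genes outside the 9, 20 were tested, and 11 of these were called higher by limma and none lower (1.80% and 0.894% of all genes tested), with a median log2 fold change of 1.40. They include the immediate-early transcription factors Junb (2.88, limma adjusted p = 9.70e-05), Nr4a3 (3.61, 0.00114), Nr4a1, Fos (2.68, 0.00618), Egr1, Atf3 and Nr4a2, which also answer to other signals. Gem, a gene for a small GTPase, rose from 6.50 to 8.09 FPKM in NC to 22.4 to 49.5 in 0 h p.r. (2.03, limma adjusted p = 0.00227). Dusp1 (1.52), Irs2 (1.27) and Icam1 (1.07) also passed, but not with the FPKM of each library set to a fixed sum (limma adjusted p = 0.0548, 0.0875 and 0.0631). Dusp1 also missed when NC replicate 1 (0.0562) or the run library of replicate 2 (0.0597) was left out, Nr4a2 when the latter was (0.0501), and Icam1 fell under a fold of 2 with quantile normalization (0.99). Among those that did not pass were Pck1 at -1.92 (limma adjusted p = 0.134), Ppargc1a at 1.12 (0.378) and the clock gene Per1, although all run values of Per1 (32.9 to 41.7) lay above NC (0.58, 0.115). This list was put together with results of these libraries known and is no independent evidence of a direction.

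**Figure D5:**
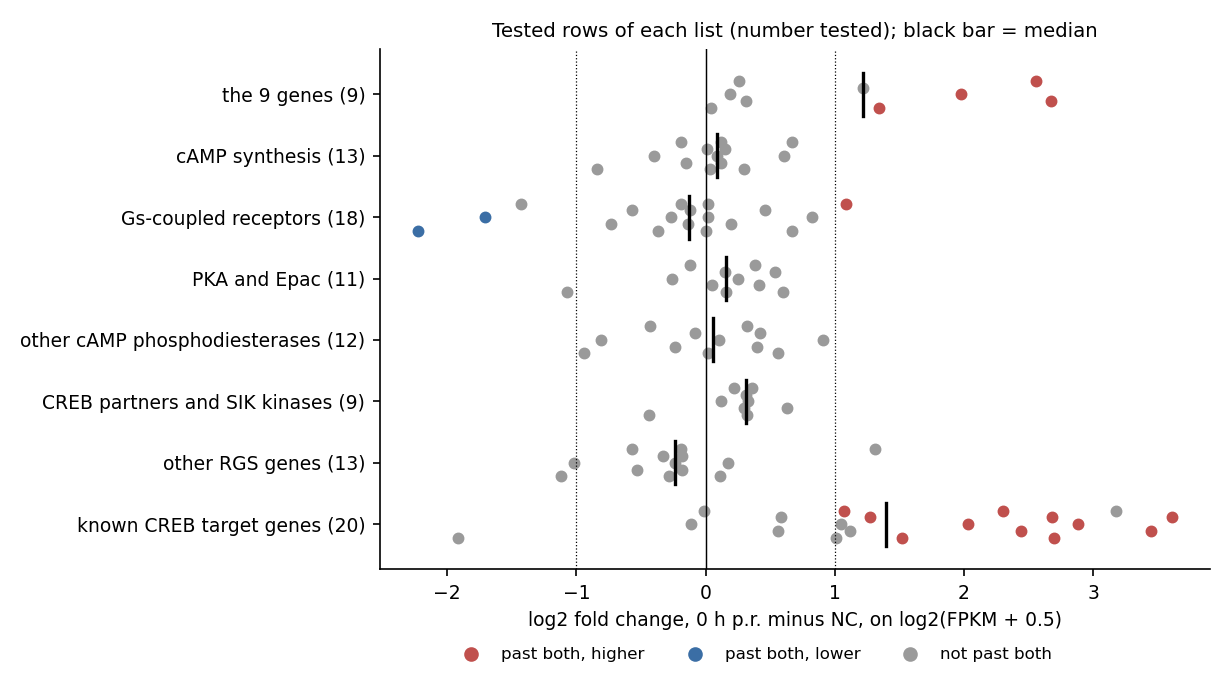
Each point is a tested row of a list (Gnas has 2), placed by its log2 fold change, 0 h p.r. minus NC (horizontal axis), with genes past both thresholds in red (higher) or blue (lower) and the median as a black bar. The medians of the 9 genes (1.22) and of the known CREB target genes (1.40) lie to the right, and those of the other 6 lists lie between -0.24 and 0.31.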

How the data were processed

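The authors aligned polyadenylated RNA reads to Rnor 6.0 with HISAT2 2.1.0, counted them per gene with featureCounts 1.6.3 and deposited FPKM values. Columns with log2 fold changes and p-values of the authors' DESeq2 1.30.1 comparison were deposited too and were not used. The study's supplement lists Pde4d, Pck1 and Ppargc1a among the genes differentially expressed at 0 h p.r., and these did not pass the limma test used here. The strand setting of the counting was not given in the sources used here. Whole reads were recovered from the steps between the FPKM values of a gene (15590 of 15590 genes within 0.02 of whole numbers). For 32 genes a common factor of the reads was put back from the gene length, so the totals per library are estimates.

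Genes that reached an FPKM of 0.5 in 4 or more of the 8 libraries (13863, leaving out 1727) were compared on log2(FPKM + 0.5), a scale that understates changes of low genes, with limma 3.58.1 (R 4.3.3, eBayes with a trend, two-sided, no covariate, Benjamini-Hochberg). The fit was tested on simulated data. Library groups came from the sample titles. Ratios were compared by exact permutation of the libraries (Python 3.11.15, numpy 2.4.6). Alternatives were other pseudocounts, filters and scalings, a replicate block, array weights, voom, the adjusted p alone and each library left out.

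Named were the 9 genes, the called genes and the largest change of each list, and the 3 genes most like each called gene. Sik2, Sik3, Rgs5, Pck1, Ppargc1a, Per1, Gnai3, Adcy2, Pde2a, Pde10a, Rgs7 and Rgs20 were named after their values were seen. The 9 genes and the lists were chosen with earlier results of these data known. Promoters came from RefSeq (GRCr8), where all 9 symbols matched.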

Additional observations from a re-analysis of the deposited data

Results flagged for a closer look

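The gap between an extreme library and its nearest neighbour was examined in 56 groups of 4 libraries, over 28 of the named genes. In 5 groups it exceeded Dixon's 95% critical share of the range, and chance gives about 1 in 20. Sik1 was at 3.14 FPKM in NC replicate 2, with the other controls at 7.93 to 8.38. Mc2r was at 1.44 in 0 h p.r. replicate 1, with the others at 3.23 to 3.33. Tshr was at 5.40 in 0 h p.r. replicate 4, with the others at 1.24 to 1.86. In NC replicate 1, Prkar2b was at 64.8 (others 28.6 to 32.4) and Pde3b at 23.5 (others 7.73 to 8.79).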

How the results depend on the processing

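Over 18 alternative analyses, 156 of the 162 values of the 9 genes kept their direction and side of the thresholds. Crem, Sik1 and Rgs16 stayed called in all 18, while Pde4b was not called with the FPKM of each library set to a fixed sum (1.33, limma adjusted p 0.0507). Pde4d was called with array weights (1.17, limma adjusted p 0.0269) and when 0 h p.r. replicate 4 was left out (1.54, 0.0119). Crtc1 changed sign with array weights (-0.17), without NC replicate 2 (-0.26) and, in the run group, without replicate 2 (-0.0022), in a range of -0.26 to 0.17 when a library was left out. The log2 ratio difference of Pde4b to Pde4d was then -0.16 to 0.32, below 0 without 0 h p.r. replicate 4.

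The 374 called genes (66.8% of them higher) became 171 with the fixed sum (77.8% higher), 212 with the replicate number as a block (83.5%) and 793 by the adjusted p alone (61.0%). They ranged from 195 (without 0 h p.r. replicate 2) to 516 (without 0 h p.r. replicate 4) when a library was left out, with 201 without 0 h p.r. replicate 3 and 217 without NC replicate 1. The pathway lists held 14 called genes (12 higher, 2 lower), 9 with the fixed sum, 20 with array weights (14 higher, 6 lower) and 10 to 17 with a library left out. The cause was not tested. Libraries of the same number did not deviate together (r of -0.141 to 0.072), so the replicate block is no pairing of animals, and under it 4 of the 9 genes were called. No scaling moved the median of all genes by over 0.1 on the log2 scale (at most to -0.0273). Depth was lowest for Pde4d and Crtc1 in NC replicate 2 (45 and 46 reads).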
